A study of Mus musculus with 6 samples.

Results

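Teneurins and synaptic adhesion proteins were examined as 8 genes, Tenm2, Tenm3, Tenm4, Slitrk1, Slitrk6, Nlgn1, Nlgn2 and Fez1, out of 18193 genes that have a probe set annotated to 1 symbol. Every such probe set of the 8 genes was taken, 16 in all. The genes were chosen with their levels in the 2 populations in view, so the differences between populations below are descriptions and carry no test. The populations were PICs and satellite cells, each with 3 arrays labelled as biological replicates. Both came from digested hindlimb skeletal muscle of mice aged 7 to 9 days, strain C57 black 6, and were separated by flow cytometry on CD34 and Sca1. PIC stands in the field for a PW1-expressing cell of the muscle interstitium (PW1 is encoded by Peg3), while satellite cells lie beneath the fibre's basal lamina and act as its stem cells. The labels do not say how many animals went into an array, and the sort defines each population by surface staining alone.

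Teneurins are large transmembrane proteins that bind across cell contacts to each other and to latrophilins, which are adhesion G protein-coupled receptors, and FLRT proteins bind latrophilins as well. Neuroligins sit on the receiving side of a synapse and bind neurexins, and Slitrk proteins are leucine-rich repeat proteins that bind receptor tyrosine phosphatases of the LAR family. Fez1 is different in kind, a cytoplasmic adaptor that links cargo to kinesin motors in axons. These proteins are best known from neurons, and Tenm4 and its relatives are also expressed outside the nervous system.

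The label was checked against neuronal markers. Of 9 neuronal marker genes, 7 lay at or under an intensity of 16 on every array, among them Snap25, Syt1 and Rbfox3, and the summed intensity of all 9 was 83 to 100 in PICs and 71 to 72 in satellite cells. Stmn2, above 16 on every array, had 45, 41 and 21 in PICs, against 23, 21 and 21 in satellite cells. Nefm, above 16 on 1 array, had 7, 15 and 18 in PICs, against 6, 7 and 7. The populations overlapped on both. An intensity of 16, or 4 on the log2 scale, is used throughout as the low value level, under which no level is taken as measured. Genes outside the 8 were called where their Benjamini-Hochberg adjusted p in a limma fit across all genes was under 0.05 and their log2 difference at least 1 in size. Schwann and glial markers had summed intensities of 10710 to 25067 in PICs and 12315 to 21031 in satellite cells, most of it from Mbp and Pmp22, which were not called. Of the 6 tested, 2 were called higher in PICs (S100b, log2 difference 1.90, and Cdh19, at least 9-fold). Foxd3 was at or under the low value level on every array. All 7 satellite cell markers, among them Pax7 (-4.79) and Myf5 (-3.95), were called lower in PICs, and 5 of 6 interstitial mesenchymal markers, among them Pdgfra (3.92), were called higher. One of the 5 is Cd34, whose product was used in the sort. Peg3 differed by 0.19. Of 5 muscle fibre markers tested, 3 were called higher and 1 lower in PICs. Haematopoietic markers stood apart by replicate number, not by population, with summed intensities of 1942, 201 and 61 in PICs and 2608, 128 and 73 in satellite cells, for replicates 1, 2 and 3. The part of other cell types in the levels below was not tested, and in sorted bulk samples fewer cells of a type and less RNA per cell cannot be told apart.

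Most of the 8 genes were higher in PICs. On the probe set with the highest mean, 6 of the 7 genes above the low value level on at least 3 arrays had every PIC array above every satellite array, and 1, Tenm4, had every PIC array below. Over all 10855 genes tested, 31.3% were parted with PICs higher and 33.2% with PICs lower. The median log2 difference was 3.35 over the 7 genes, with Fez1 at its fitted value or at its bound, and -0.04 over all genes tested. The remaining gene, Nlgn1, did not reach the low value level on any array. Since the genes were chosen on this contrast, nothing is read from these counts.

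**Figure D1:**
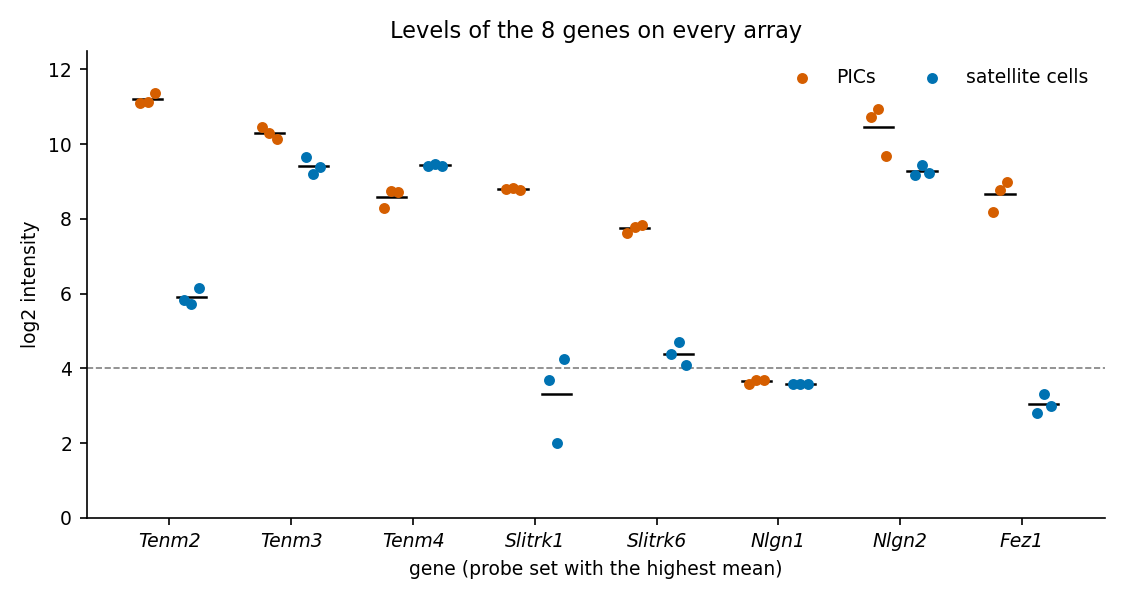
Log2 intensity (vertical axis) of the 8 genes on each array, with PICs in orange on the left and satellite cells in blue on the right of each pair; points are arrays, black bars are means of 3 arrays, and the dashed line is the low value level of 4. Tenm2, Slitrk1, Slitrk6 and Fez1 lie far higher in PICs, Tenm3 and Nlgn2 lie closer together, Tenm4 lies lower in PICs, and Nlgn1 stays under the line.

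The 3 teneurin genes did not run the same way. Tenm2 had intensities of 2196, 2249 and 2667 in PICs, against 57, 53 and 71 in satellite cells. The lowest PIC array was thus far above the highest satellite array, and the log2 levels were 11.21 ± 0.15 in PICs (SD, n = 3), against 5.90 ± 0.22 in satellite cells (SD, n = 3), a difference of 5.30 or 39.5-fold. Only 9 of the genes tested had a larger difference towards PICs. Satellite cells still read above the low value level on all 3 arrays of this probe set.

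Of the other Tenm2 probe sets, 2 gave the same direction. Probe set 1420718_at had intensities of 279, 259 and 291 in PICs, against 30, 28 and 22 in satellite cells, 10.4-fold apart. Probe set 1454424_at had 140, 91 and 154 in PICs, against 7, 5 and 7 in satellite cells, so Tenm2 was there at least 7.82-fold higher in PICs. That bound is the mean of the PIC arrays over the low value level. Another, 1432988_at, annotated to the same GenBank record as 1454424_at, read 4 or 5 on every array of both populations. The size of the Tenm2 difference thus depended on the probe set, at 3.38 and 5.30 on the log2 scale for the 2 measured above the low value level in both populations.

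Tenm3 had intensities of 1405, 1249 and 1126 in PICs, against 811, 594 and 668 in satellite cells. The populations did not overlap, but the difference was small beside that of Tenm2, at 10.29 ± 0.16 in PICs (SD, n = 3), against 9.42 ± 0.23 in satellite cells (SD, n = 3) on the log2 scale, 0.87 apart or 1.83-fold. Its other probe set, 1429178_at, had 572, 587 and 624 in PICs, against 391, 385 and 502 in satellite cells, a log2 difference of 0.49. Tenm3 thus lay above the low value level on every array on both probe sets.

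Tenm4 went the other way. Its intensities were 314, 428 and 423 in PICs, against 680, 705 and 687 in satellite cells. Log2 levels were 8.59 ± 0.25 in PICs (SD, n = 3), against 9.43 ± 0.03 in satellite cells (SD, n = 3), a difference of -0.84, which is 1.80-fold lower in PICs. Probe set 1455993_at had 246, 270 and 171 in PICs, against 580, 519 and 356 in satellite cells, a log2 difference of -1.08.

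On the third Tenm4 probe set, 1451888_a_at, intensities were 416, 443 and 189 in PICs, against 756, 654 and 328 in satellite cells. Here the populations overlapped, since satellite replicate 3 lay below PIC replicates 1 and 2. Replicate 3 was the lowest of its population on 1451888_a_at and 1455993_at but not on 1434530_at, the probe set with the highest mean. Compared at equal replicate number, the PIC array was lower on each of the 3 probe sets, with log2 differences of -0.86, -0.56 and -0.80 on 1451888_a_at.

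**Figure D2:**
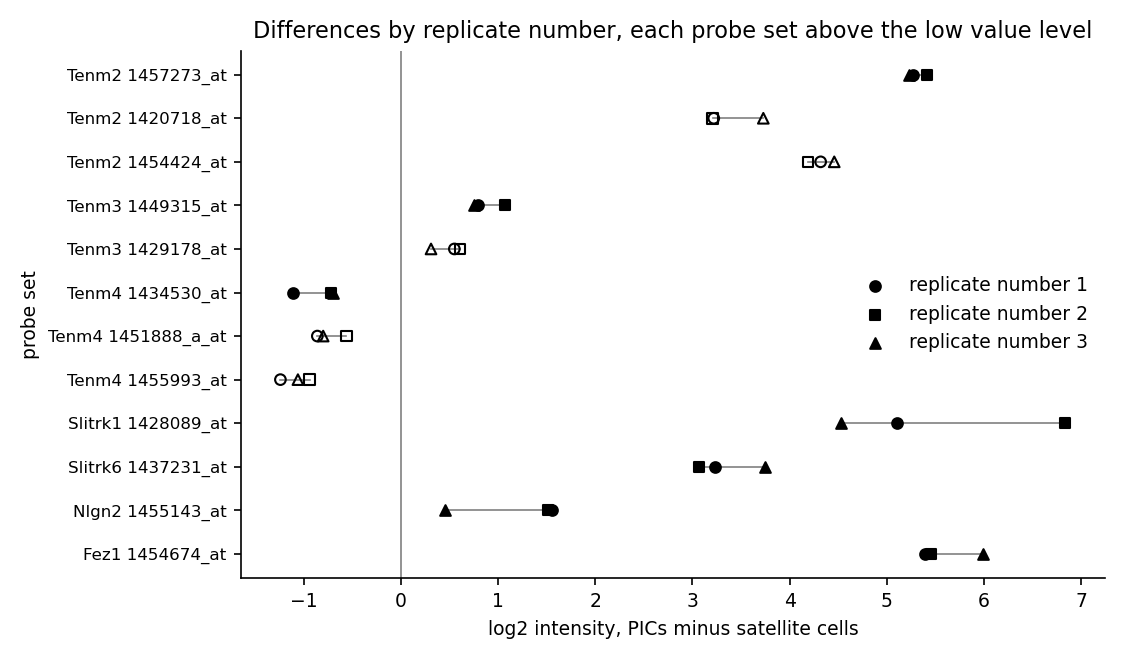
Log2 intensity of PICs minus satellite cells (horizontal axis) for each of the 12 probe sets that were above the low value level on at least 3 arrays, taken between arrays of equal replicate number (circle 1, square 2, triangle 3). Filled symbols mark the probe set with the highest mean of a gene. All 12 probe sets keep one direction at all 3 numbers, with Slitrk1 (4.53 to 6.84) and Nlgn2 (0.45 to 1.55) the most spread. For Fez1 and Tenm2 probe set 1454424_at the satellite arrays lay under the low value level, so only a bound on the size was measured.

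Among the Slitrk genes, Slitrk1 had intensities of 449, 458 and 439 in PICs, against 13, 4 and 19 in satellite cells. PIC arrays were nearly equal, while satellite arrays scattered around the low value level, 2 of 3 under it. Log2 levels were 8.81 ± 0.03 in PICs (SD, n = 3), against 3.32 ± 1.17 in satellite cells (SD, n = 3), and the difference of 5.49 has an uncertain size, since a satellite level was measured on 1 array only. Taken by replicate number it was 5.11, 6.84 and 4.53.

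Slitrk6 had 197, 218 and 229 in PICs, against 21, 26 and 17 in satellite cells. All satellite arrays lay just above the low value level, and the populations did not overlap. The log2 levels were 7.74 ± 0.11 in PICs (SD, n = 3), against 4.39 ± 0.31 in satellite cells (SD, n = 3), 3.35 apart or 10.2-fold. In the RefSeq annotation of GRCm38.p6, Slitrk1 and Slitrk6 are neighbours on chromosome 14 with 0 other protein-coding genes between them, and the next protein-coding gene after Slitrk6 is Slitrk5. Slitrk5 had intensities of 7, 7 and 6 in PICs, against 13, 15 and 7 in satellite cells, at or under the low value level on all arrays, as were Slitrk2, Slitrk3 and Slitrk4.

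Of the neuroligins, Nlgn2, the form found at inhibitory synapses, had intensities of 1688, 1979 and 815 in PICs, against 576, 693 and 597 in satellite cells. PIC replicate 3 lay much closer to the satellite arrays than the other PIC arrays did. Log2 levels were 10.45 ± 0.68 in PICs (SD, n = 3), against 9.28 ± 0.14 in satellite cells (SD, n = 3), a difference of 1.17 or 2.25-fold. Without PIC replicate 3 the difference was 1.56. Summed endothelial marker intensities were lowest in PIC replicate 3 as well, at 4512, 3278 and 1227 in PIC replicates 1, 2 and 3, against 3128, 2343 and 2083 in the satellite replicates. Summed mural cell markers were 12847, 9957 and 5183 in PICs, against 9661, 5582 and 8102 in satellite cells. Of the 5 mural markers, 1, Cspg4, was called higher in PICs (log2 difference 2.23). Summed Schwann and glial, haematopoietic and tendon markers were also lowest of the 6 arrays in PIC replicate 3, at 10710, 61 and 1758. Muscle fibre markers were highest there, at 1299. The part of any of these cell types in the Nlgn2 values was not tested. The other Nlgn2 probe set, 1460013_at, read 4 on every array.

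Nlgn1, the form of excitatory synapses, had 12, 13 and 13 in PICs, against 12 on each satellite array. Its other probe set, 1421648_at, read 5 on every array. No level of Nlgn1 was therefore measured in either population, and no fold is given. GCRMA pulls probe sets without signal towards a common low value, which narrows their spread, so the near equality of these readings says nothing about the transcript.

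Fez1 had intensities of 293, 440 and 508 in PICs, against 7, 10 and 8 in satellite cells. All satellite arrays lay under the low value level, so the gene was at least 25.2-fold higher in PICs, whose log2 level was 8.65 ± 0.41 (SD, n = 3). It has 1 probe set, so no second reading exists. Fez2, its relative, was read in both populations, with 286, 271 and 351 in PICs, against 249, 211 and 220 in satellite cells (log2 difference 0.41, 95% interval 0.07 to 0.76, adjusted p = 0.0466, limma), under the threshold of 2-fold.

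**Figure D3:**
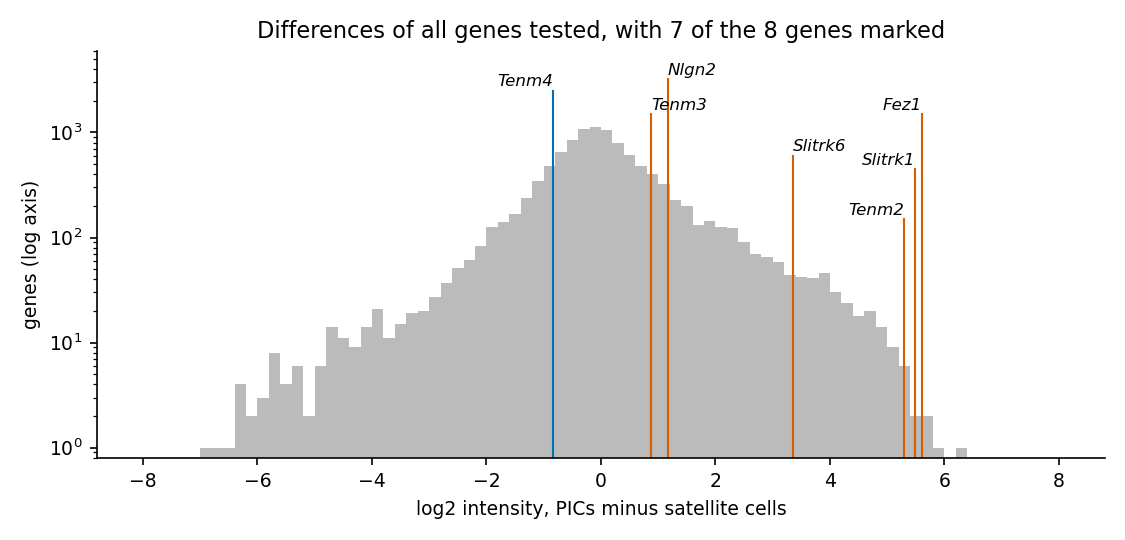
Distribution of the log2 difference, PICs minus satellite cells, over the 10855 genes tested (grey bars, vertical log axis), with vertical lines at 7 of the 8 genes, orange where higher in PICs and blue where lower. Tenm2 and Slitrk1 lie in the far right tail at 5.30 and 5.49, Fez1 is drawn at its fitted value although only a bound of 25.2-fold was measured, and Tenm3, Nlgn2 and Tenm4 lie within 1.17 of 0; line heights carry no meaning.

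Upstream sequences are shown for 3 of the genes higher in PICs, including the neighbouring Slitrk pair, and for Tenm4, which was lower, so that they can be set side by side. Each is the 250 bases before the most upstream start in RefSeq, build GRCm38.p6, written 5′ to 3′ on the gene's strand. Tenm4 has 2 annotated starts and Fez1 3, and the arrays do not say which is used. Capitals mark the E-box CANNTG, which basic helix-loop-helix factors such as those of the myogenic lineage bind, and GGAATG, the motif of Tead factors, each on either strand.
Slitrk1, chr14:108914240-108914489, minus strand: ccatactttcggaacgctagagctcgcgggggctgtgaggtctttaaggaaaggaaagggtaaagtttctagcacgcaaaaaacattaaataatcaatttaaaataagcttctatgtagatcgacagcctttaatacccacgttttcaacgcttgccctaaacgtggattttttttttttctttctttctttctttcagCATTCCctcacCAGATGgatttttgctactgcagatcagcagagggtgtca
Slitrk6, chr14:110755150-110755399, minus strand: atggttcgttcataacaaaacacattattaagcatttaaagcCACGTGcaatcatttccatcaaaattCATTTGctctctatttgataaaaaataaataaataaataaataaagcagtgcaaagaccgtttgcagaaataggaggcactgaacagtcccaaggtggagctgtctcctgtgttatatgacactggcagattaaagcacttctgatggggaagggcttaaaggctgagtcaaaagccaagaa
Fez1, chr9:36821641-36821890, plus strand: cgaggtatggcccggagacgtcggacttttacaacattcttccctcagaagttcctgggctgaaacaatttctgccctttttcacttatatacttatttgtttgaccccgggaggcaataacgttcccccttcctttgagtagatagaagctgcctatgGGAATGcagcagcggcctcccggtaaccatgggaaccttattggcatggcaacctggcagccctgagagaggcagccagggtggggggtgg
Tenm4, chr7:96170994-96171243, plus strand: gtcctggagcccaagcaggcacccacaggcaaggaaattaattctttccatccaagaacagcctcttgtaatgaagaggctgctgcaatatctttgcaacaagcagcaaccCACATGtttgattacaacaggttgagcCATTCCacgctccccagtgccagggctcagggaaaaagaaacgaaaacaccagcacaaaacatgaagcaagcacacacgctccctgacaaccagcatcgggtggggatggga

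Motifs were counted as letters on both strands of these windows. CANNTG occurred once in Slitrk1, 2 times in Slitrk6, once in Tenm4 and not in Fez1, and 66.2% of 32851 RefSeq promoter windows of this length held it. GGAATG occurred once each in Slitrk1, Fez1 and Tenm4 and not in Slitrk6, against 12.6% of all windows. The windows of Tenm2, Tenm3, Nlgn1 and Nlgn2, not shown, held no GGAATG. The windows shown thus include every window of the 8 genes that holds this motif. CAGCTG, an E-box counted within CANNTG, was in none of the 4 windows shown and in 13.0% of all. Among the windows not shown, that of Nlgn2, also higher in PICs, held 1 CAGCTG. Those of Tenm2, Tenm3 and Nlgn1 held no CAGCTG, and that of Tenm3 held 1 other CANNTG. The Tenm2 window ends in letters like those at the end of an intron, and whether it is a promoter was not tested. TATAAA was in none of the 4 windows shown and in 12.4% of all. These matches describe letters and were not tied to the difference between populations.

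Related genes that are not among the 8 were read from the same fit across all genes. They were listed with earlier results of these data known, so their tests are not an independent check on the 8 genes. The threshold for a call was passed by 29.8% of genes tested, 16.7% higher and 13.0% lower in PICs. Of 65 related genes listed, 25 were tested, 35 were below the filter and 5 were not analysed here. Among those tested, 5 were called higher in PICs and 4 lower, 36.0% in all, with a median log2 difference of 0.64. The lists are small, and this share is close to that of all genes.

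Partners of the teneurins were mostly measured. Of 7 tested, 3 were called higher in PICs, 1 was called lower and 3 were not called, with a median log2 difference of 0.83. Adgrl1, a latrophilin, had intensities of 1052, 994 and 892 in PICs, against 255, 252 and 300 in satellite cells (log2 difference 1.87, limma, adjusted p = 9.97e-05). Its other probe set, 1452812_at, overlapped between the populations, with 273, 280 and 91 in PICs, against 91, 79 and 89 in satellite cells. The FLRT genes Flrt3 and Flrt2 were called at 1.74 and 1.38 (adjusted p = 0.000356 and 0.000281, limma), and every Flrt2 and Flrt3 probe set above the low value level had PIC arrays above satellite arrays.

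Adgrl2 and Adgrl3, the other latrophilins, differed by 0.64 and 0.82 (95% intervals 0.15 to 1.14 and 0.29 to 1.36) and were not called. Adgrl3 was called with the mean of its kept probe sets, at 1.03 (adjusted p = 0.00463, limma). Flrt1 differed by 0.83 and was not called, with intensities of 20, 37 and 39 in PICs, against 18, 19 and 15 in satellite cells; it was called without PIC replicate 1, at 1.14. Dag1, which encodes dystroglycan, was called lower in PICs, with 7157, 6030 and 5237 in PICs, against 18095, 18214 and 17391 in satellite cells (log2 difference -1.55, limma, adjusted p = 0.00023). Tenm1, the remaining teneurin, read 4 on every array.

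Partners of the neuroligins were largely not measured. Of 15 genes with a probe set, 2 were tested and 13 were below the filter. Nrxn2 reached the low value level on 2 arrays, with 23, 34 and 10 in PICs, against 8, 8 and 9 in satellite cells. Nrxn3 had 9, 14 and 22 in PICs, against 9 on each satellite array, and Nlgn3 read 8 on every array. Clstn2, a calsyntenin that binds neurexins, was called higher in PICs, with 79, 72 and 104 against 23, 28 and 27 in satellite cells (log2 difference 1.70, limma, adjusted p = 0.000336). The other Clstn2 probe set, 1422158_at, read 5 on every array. Clstn1 differed by 0.15 (95% interval -0.38 to 0.69).

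None of the 3 LAR family phosphatase genes, whose products bind Slitrk proteins, was called higher in PICs. Over the whole list of Slitrk partners and related leucine-rich proteins, 6 of 19 genes were tested, of which 1 was called higher and 2 lower in PICs (median log2 difference -0.19), and the other 13 lay at or under the low value level on every array. Ptprf had intensities of 1088, 1196 and 1025 in PICs, against 3392, 2655 and 2254 in satellite cells (log2 difference -1.31, limma, adjusted p = 0.000962). Ptprd had 1023, 962 and 813 in PICs, against 1980, 1866 and 1787 in satellite cells (-1.01, limma, adjusted p = 0.000787), just past the threshold. Without PIC replicate 3 it was -0.92 and without satellite replicate 1 it was -0.98, and it was not called in either case. With array weights Ptprd was -0.96 and was not called either. The other 2 Ptprd probe sets above the low value level also had all PIC arrays lower.

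Ptprs, the third LAR family phosphatase, had 4665, 5013 and 3437 in PICs, against 2396, 2412 and 2419 in satellite cells, and was not called at 0.84 (limma, adjusted p = 0.00494). Without PIC replicate 3 it was called, at 1.01. The call with the largest difference in this list was Ntrk3, the neurotrophin-3 receptor, which also binds Ptprs at synapses. On probe set 1433825_at it had 254, 307 and 309 in PICs, against 11, 14 and 24 in satellite cells (log2 difference 4.22, limma, adjusted p = 1e-04), with a satellite mean just under the low value level. No other Ntrk3 probe set passed the filter. Probe set 1422329_a_at had 51, 69 and 13 in PICs, against 6 on each satellite array, and 1455917_at had 23, 33 and 8, against 5, 6 and 6. On 1425071_s_at the populations overlapped. Probe sets 1425070_at, 1426003_at, 1443970_at and 1447723_at stayed under the low value level on every array. Lrfn4, a leucine-rich synaptic protein, was not called at -0.98 (adjusted p = 0.00438, limma), but it was without PIC replicate 2, at the threshold, or satellite replicate 1 (-1.15), and Il1rap was not called at 0.60.

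Cytoplasmic partners gave 1 call among 10 tested. Homer1, a scaffold of glutamate receptor signalling that is also expressed in muscle, was lower in PICs, with 71, 80 and 111 in PICs, against 349, 388 and 393 in satellite cells (log2 difference -2.13, limma, adjusted p = 2e-04). Its 2 further probe sets that reached the low value level on at least 3 arrays, 1436387_at and 1439662_at, had all PIC arrays lower as well. Dlg1, a scaffold of cell junctions, differed by 0.92 (95% interval 0.47 to 1.36) and Dlg3 by 0.68 (0.33 to 1.04), and neither was called. Dlg1 was called higher in PICs without PIC replicate 1 (1.05) or satellite replicate 3 (1.06), the kinase gene Prkcz without satellite replicate 3 (1.17), and the scaffold gene Shank3 without PIC replicate 3 (1.37). On the other Dlg1 probe set above the low value level, 1450768_at, the difference was 0.13, and the mean of the kept Dlg1 probe sets gave 0.52. Gphn, which encodes gephyrin and binds neuroligin-2 at inhibitory synapses, differed by -0.38 (95% interval -0.67 to -0.09), but its probe set 1426462_at ran the other way, with 210, 257 and 287 in PICs, against 156, 154 and 188 in satellite cells. Kif5b, a kinesin heavy chain, was not called at -0.71 (adjusted p = 0.101, or 0.00333 with the replicate block, limma). Its probe sets 1418427_at, 1418428_at and 1418429_at had all PIC arrays lower, with differences of -1.15, -0.85 and -0.62.

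**Figure D4:**
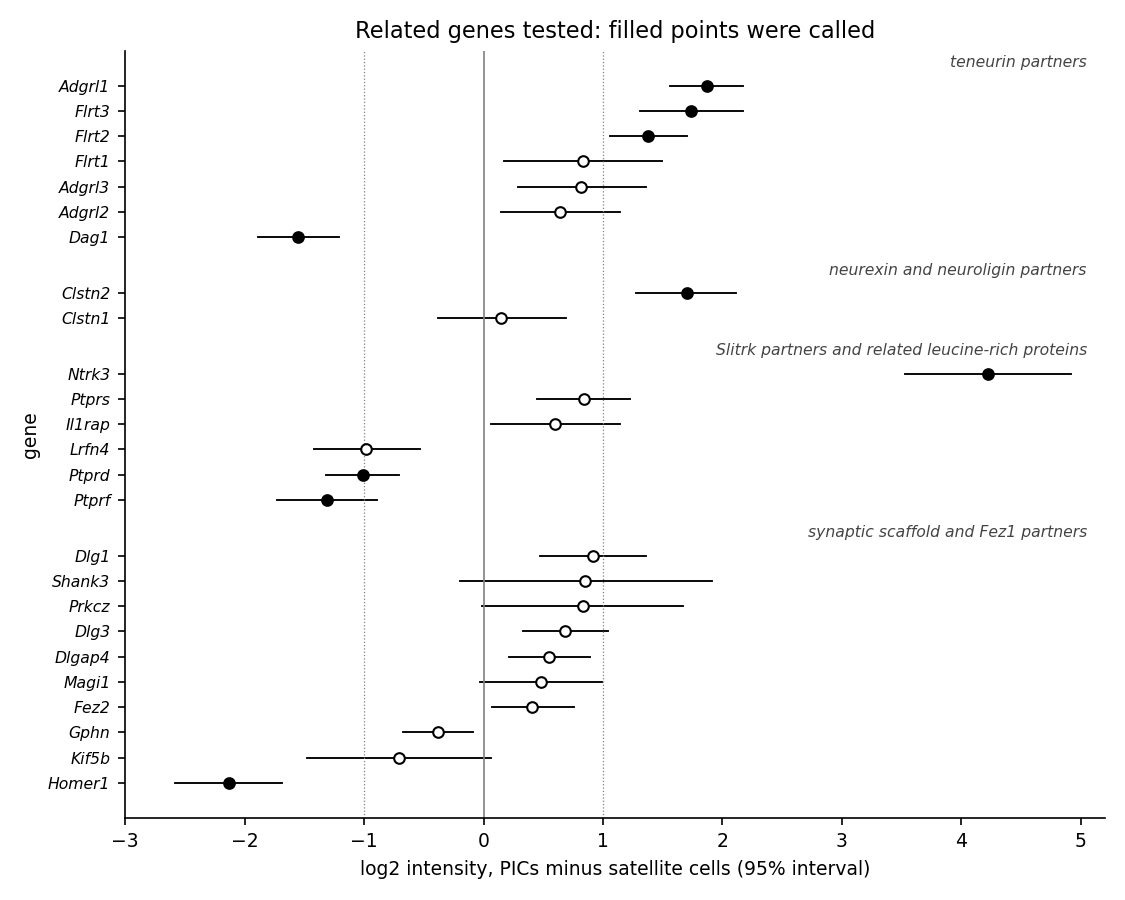
Log2 intensity of PICs minus satellite cells (horizontal axis) for the 25 related genes tested, in 4 lists, with 95% intervals from limma over 3 arrays per population; filled points were called and dotted lines mark the 2-fold threshold. Calls fall on both sides, with Ntrk3 (4.22) at the right and Homer1 (-2.13) at the left.

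Genes with the profile most like each of the 7 across the 6 arrays are given as a description, by Pearson correlation of log2 values. Tenm2 was most like Prxl2c (r = 0.9996), Fzd2 (0.9994) and Ldb2 (0.9993), and Slitrk1 like Sulf2 (0.9994), Fst (0.9994) and Kcnk6 (0.9993). Tenm3 was most like Sel1l (0.9987), Tjp1 (0.9961) and Ifngr1 (0.9957). Tenm4 was most like Myh8 (0.9974), which encodes perinatal myosin heavy chain, Isy1 (0.997) and Rps19bp1 (0.9966). Slitrk6 was most like Zfp383 (0.9998), Rabif (0.9992) and Adamtsl5 (0.9981). Nlgn2 was most like Pias3 (0.9969), Grrp1 (0.995) and Tns2 (0.9942), and Fez1 like Ctsb (0.9997), Zfp862-ps (0.9991) and Alg11 (0.9989). With 6 arrays in 2 groups such values mostly restate the difference between populations: 16.1% of genes tested had r over 0.95 with Tenm2, 14.0% with Slitrk1, and 1.05% with Nlgn2, whose PIC arrays differed most among themselves.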

How the data were processed

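The deposited values are intensities of 45037 probe sets on 6 single-colour Affymetrix arrays, made by the authors with GCRMA, per the submitters' processing notes; its version and settings are not given in the sources used here. They are linear and rounded to whole numbers, so the lowest log2 values move in coarse steps. Every array had a median of 10, and 44.7% to 45.5% of its probe sets lay above 16. Labelling started from 200 ng of RNA, per the labels.

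Values were taken to log2. Of 34945 probe sets with 1 symbol, named through the platform annotation and updated by gene number, those above 4 on at least 3 arrays were kept (18433), and 1 of them, highest by mean over the 6 arrays, stood for each gene. The 10855 genes were tested with limma 3.58.1 in R 4.3.3 (lmFit, eBayes, two-sided, Benjamini-Hochberg). The procedure was run on simulated data with normal noise. Those data had no pairing of arrays and no rounding of low values, so they do not test the procedure for these features. The number of arrays limits precision.

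The 8 genes and all lists were chosen with earlier results of these data known. The rule names every probe set of the 8 genes, called and some uncalled related genes, and the 3 genes most like each. Protein sequences were not used here.

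Replicate numbers are shared between populations. Deviations from the population mean correlated across genes at 0.623, 0.222 and 0.579 for equal numbers and at -0.568 to 0.0363 for unequal ones, so the numbers pair the arrays in the data, though the labels do not say why. This number entered as a block in an alternative fit. Arrays of a population correlated at 0.956 to 0.986. Batches of scanning were not tested. Other alternatives were no filter or a stricter filter on low values (log2 above 6), the mean of kept probe sets, log2(value + 16), a variance trend, array weights, and leaving out arrays.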

Additional observations from a re-analysis of the deposited data

How the results depend on the processing

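The direction of the 7 measured genes held under each alternative that could move it. The Fez1 values are fitted against satellite arrays under the low value level. The low value filters, the variance trend and the replicate block leave these differences as they are by construction. The mean of kept probe sets likewise cannot move Slitrk1, Slitrk6, Nlgn2 and Fez1, which have no further probe set that was kept. Apart from the filters, the trend and the block, 77 differences were recomputed, with those 4 genes still counted. Of these 77, 71 moved by less than the replicate spread or not at all. The others were Tenm2 at 4.34 with the mean of its probe sets, Tenm2 at 4.97, Slitrk1 at 4.09, Slitrk6 at 2.63 and Fez1 at 4.11 with log2(value + 16), which compresses low values by construction, and Slitrk1 at 6.38 with array weights. Leaving out arrays gave 5.21 to 5.43 for Tenm2, 4.84 to 5.97 for Slitrk1, 5.42 to 5.84 for Fez1 and 0.92 to 1.56 for Nlgn2. The replicate block left the list counts as they were and gave 1852 genes higher and 1448 lower in PICs, so pairing changed no call count by over 1.5 times. For partners of Slitrk proteins, the calls higher in PICs were 1 to 2 and the calls lower in PICs 1 to 3 when arrays were left out, and 2 were higher with array weights. For the scaffold list, the calls higher in PICs were 0 to 2 when arrays were left out and 3 with array weights. Leaving out both arrays numbered 1, or both numbered 3, was chosen after seeing the data. The gephyrin gene Gphn turned to 0.17 with the mean of its probe sets, which disagree in direction. The cause of the other changes was not tested. Signal near the low value level limits the sizes given for Slitrk1, Fez1 and Ntrk3.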
